A study of Mus musculus with 16 samples.

Results

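The 8 genes described here are the fibroblast growth factor (FGF) ligands Fgf5, Fgf7, Fgf10, Fgf18 and Fgf22 and the FGF receptors Fgfr1, Fgfr2 and Fgfr3. They were chosen by name for their roles in the hair cycle, from 22366 protein-coding genes of the annotation. Peaks of 3 histone marks, trimethylation of H3 on lysine 4 (H3K4me3), on lysine 27 (H3K27me3) and on lysine 9 (H3K9me3), were examined by ChIP-seq in 4 sorted populations of mouse skin cells. A peak is a stretch of genome where the authors' peak caller found more immunoprecipitated reads than in the matching IgG control. A gene was said to carry a mark at a start when a peak shared at least 1 bp with the 3000 bp to either side of any of its annotated transcript starts, and over its body when a peak shared at least 1 bp with the annotated gene.

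All mice were wild type and of CD1 x FVB background, and the samples are labelled male, although the study's methods say that both sexes were used in most of its work. EA-HFSCs were CD34+/α6-integrin+ hair follicle stem cells of the bulge at PD22 to PD25, in early anagen, the growth phase in which these cells divide. LC-HFSCs were cells of the same surface phenotype at PD38 to PD44, in late catagen, when they have become quiescent. The CD34-/α6-integrin+ cells of the same ages, called non-EA-HFSCs or non-LC-HFSCs by stage, were a mixture of mainly epidermal and lower outer root sheath cells. Each sort pooled 15 to 20 mice, and reads of replicate experiments were pooled before peaks were called, so that there was 1 list per population and mark. No difference between populations could therefore be set against a replicate error, and no test was made.

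FGF ligands are secreted proteins that bind receptor tyrosine kinases on neighbouring cells and act through the Ras-MAP kinase relay. In the hair follicle, Fgf18 is known to hold the stem cells in rest, Fgf7 and Fgf10 are signals from the dermal papilla that help to start a new cycle, and Fgf5 brings anagen to an end, so that mice without it have long hair. Fgf22 is a relative of Fgf7 and Fgf10 that signals through the same receptor. Fgfr2 makes in epithelial cells the splice form that receives Fgf7 and Fgf10, Fgfr3 is also found in epidermis, and Fgfr1 is widely expressed. H3K4me3 marks active and poised promoters, H3K27me3 is laid down by Polycomb complexes at silent developmental genes, and H3K9me3 is best known from heterochromatin.

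The genes differ in the DNA at their starts. The 250 bases before the reference start are shown for 5 ligands and 1 receptor, 5′ to 3′ on the coding strand, because CpG dinucleotides (in capitals) set the ligands that carried H3K4me3 apart from the other 3 ligands, while the receptor did not follow this order. The reference start was the most upstream coding start within 1000 bp of the start of the gene's lowest-numbered coding transcript. The sequences were read from mm9. They lie at chr11:33047401-33047650 (minus strand) for Fgf18, chr5:98682953-98683202 (plus) for Fgf5, chr13:119503256-119503505 (plus) for Fgf10, chr2:125860144-125860393 (plus) for Fgf7, chr10:79217571-79217820 (plus) for Fgf22 and chr7:137410323-137410572 (minus) for Fgfr2.
Fgf18: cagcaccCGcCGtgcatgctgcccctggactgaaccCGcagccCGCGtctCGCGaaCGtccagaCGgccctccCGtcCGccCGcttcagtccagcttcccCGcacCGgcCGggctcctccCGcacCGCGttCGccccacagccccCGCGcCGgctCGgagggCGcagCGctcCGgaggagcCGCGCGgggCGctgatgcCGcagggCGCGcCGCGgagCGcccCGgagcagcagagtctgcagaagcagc
Fgf5: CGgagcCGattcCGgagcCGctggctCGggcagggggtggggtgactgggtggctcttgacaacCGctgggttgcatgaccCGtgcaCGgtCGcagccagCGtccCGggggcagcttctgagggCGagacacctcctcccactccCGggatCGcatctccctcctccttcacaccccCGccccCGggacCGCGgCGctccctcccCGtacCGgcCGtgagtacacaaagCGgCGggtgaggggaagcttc
Fgf10: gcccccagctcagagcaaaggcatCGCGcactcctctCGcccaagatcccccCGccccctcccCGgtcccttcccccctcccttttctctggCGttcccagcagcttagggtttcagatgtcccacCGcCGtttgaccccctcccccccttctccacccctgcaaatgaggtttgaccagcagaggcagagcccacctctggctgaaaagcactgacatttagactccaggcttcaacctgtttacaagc
Fgf7: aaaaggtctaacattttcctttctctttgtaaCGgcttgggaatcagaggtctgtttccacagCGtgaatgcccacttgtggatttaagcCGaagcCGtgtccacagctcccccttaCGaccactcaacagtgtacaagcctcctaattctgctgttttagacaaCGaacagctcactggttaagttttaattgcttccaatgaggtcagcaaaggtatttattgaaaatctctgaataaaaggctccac
Fgf22: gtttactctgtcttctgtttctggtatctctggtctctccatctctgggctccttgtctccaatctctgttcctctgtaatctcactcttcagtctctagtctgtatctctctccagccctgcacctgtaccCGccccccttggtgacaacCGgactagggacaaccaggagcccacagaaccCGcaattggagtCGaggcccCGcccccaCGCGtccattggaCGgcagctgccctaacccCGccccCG
Fgfr2: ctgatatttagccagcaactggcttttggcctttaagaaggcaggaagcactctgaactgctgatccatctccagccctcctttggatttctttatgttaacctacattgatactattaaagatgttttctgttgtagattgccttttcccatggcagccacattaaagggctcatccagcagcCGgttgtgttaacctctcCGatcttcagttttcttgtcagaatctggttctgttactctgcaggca

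The stretch before Fgf18 held 37 CpG, a number that 97.9% of all genes did not exceed, and that before Fgf5 held 24. Fgf22 had 10, Fgf10 8 and Fgf7 6, near the median of 8 over all genes. Fgfr2 had 2, although its reference start lay under an H3K4me3 peak in all populations. That peak covered 7 of 14 annotated starts of Fgfr2, and CpG was counted at the reference start only. Of the receptors not shown, Fgfr3 had 19 CpG and Fgfr1 had 14. The GC box core GGGCGG, searched on both strands, occurred in 40% of all such stretches and in those of Fgf5, Fgf10, Fgf18, Fgfr1, Fgfr3 and Fgf22, with 3 matches each in Fgfr3 and Fgf22. The TATA box core TATAAA was in 12.4% of all stretches and in none of the 8.

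Over 1001 bp centred on the start, the ratio of observed to expected CpG was 0.91 for Fgf18, 0.82 for Fgfr1, 0.74 for Fgf5, 0.70 for Fgfr3, 0.57 for Fgfr2, 0.53 for Fgf10, 0.49 for Fgf22 and 0.38 for Fgf7. The median was 0.74 for the 12277 genes with H3K4me3 at a start in all 4 populations and 0.19 for the 8026 genes with it in none. Fgf10 and Fgf22 had a ratio above 0.46, the 90th percentile of the genes without H3K4me3, and carried no H3K4me3 themselves.

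**Figure D1:**
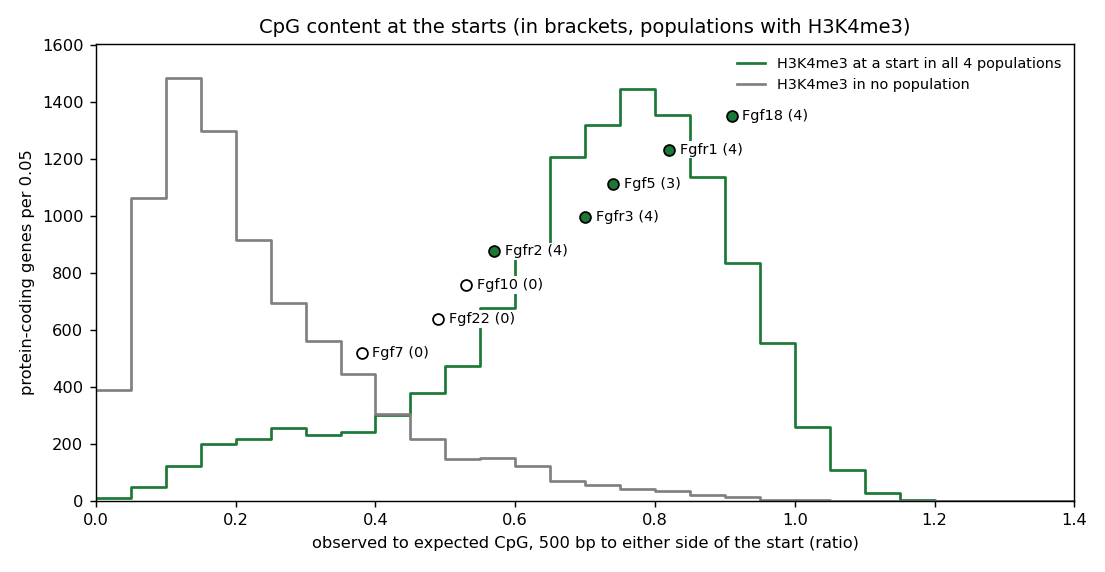
Observed to expected CpG within 500 bp to either side of the start (x axis, ratio) against the number of protein-coding genes per bin of 0.05 (y axis), for genes with H3K4me3 at a start in all 4 populations and in none. Circles mark the 8 FGF genes at their ratio, with heights set only for legibility, and the number in brackets counts the populations with H3K4me3, from Fgf7 at 0.38 with 0 to Fgf18 at 0.91 with 4.

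The lists differed much in length, which bears on every absence. They held 14718 to 24498 peaks for H3K4me3, 1909 in LC-HFSCs against 15273 to 25534 in the other populations for H3K27me3, and 1414 in LC-HFSCs against 17873 to 42277 for H3K9me3. The EA-HFSC H3K9me3 list stood apart in another way, with a start peak at 47.9% of all genes, against 14.1% in non-LC-HFSCs, 4.14% in non-EA-HFSCs and 0.505% in LC-HFSCs. A missing peak means only that no enrichment passed the caller's threshold. By the study's methods, the LC-HFSC libraries had the larger read totals of the 2 stem cell populations, and H3K27me3 and H3K9me3 did not reach saturation in peak calling. Marker genes were read for H3K4me3 at a start, beside 55.9% to 62.4% of all genes, and some also for H3K27me3. By H3K4me3, Cd34 alone of the stem cell and basal keratinocyte markers set HFSCs apart from the CD34- cells. All 10 markers of hair follicle stem cells and basal keratinocytes carried H3K4me3 in both HFSC lists, and 9 did in both non-HFSC lists, where Cd34, the sorting marker, lacked it. By H3K27me3 more of them differed. It was at a start of 0 of these 10 in EA-HFSCs (all genes 14.0%) and of 0 in LC-HFSCs (3.73%). In non-EA-HFSCs it was at 4 (Cd34, Lgr5, Sox9 and Lhx2; 16.8%), and in non-LC-HFSCs at 5, with Tcf7l1 added (12.9%). Of 4 leukocyte markers 1 (Cd68), of 3 endothelial markers 1 (Kdr), of 5 melanocyte markers 2 to 3 and of 7 dermal papilla and fibroblast markers 2 to 4 carried H3K4me3 in a list.

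Of the 96 pairs of a gene and a list, 36 had a peak at a start. H3K4me3 was at a start of 5 of the 8 genes in EA-HFSCs (Fgf5, Fgf18 and the 3 receptors), at the same 5 in non-EA-HFSCs and in non-LC-HFSCs, and at 4 in LC-HFSCs, where Fgf5 lacked it. Among all genes the shares were 62.4% in EA-HFSCs, 61.7% in non-EA-HFSCs, 58.8% in non-LC-HFSCs and 55.9% in LC-HFSCs, so that the 8 genes were near the background. H3K27me3 was found at ligand genes and at none of the receptors. It was at a start of 3 genes in EA-HFSCs (Fgf5, Fgf7 and Fgf10; all genes 14.0%), of 1 in LC-HFSCs (Fgf5; 3.73%), of 4 in non-EA-HFSCs (Fgf5, Fgf7, Fgf10 and Fgf18; 16.8%) and of 3 in non-LC-HFSCs (Fgf5, Fgf10 and Fgf18; 12.9%). H3K9me3 was at a start of 5 genes in EA-HFSCs (Fgf5, Fgf10 and the 3 receptors), of Fgfr2 alone in non-LC-HFSCs and of none in LC-HFSCs or non-EA-HFSCs, beside the shares of all genes given above.

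**Figure D2:**
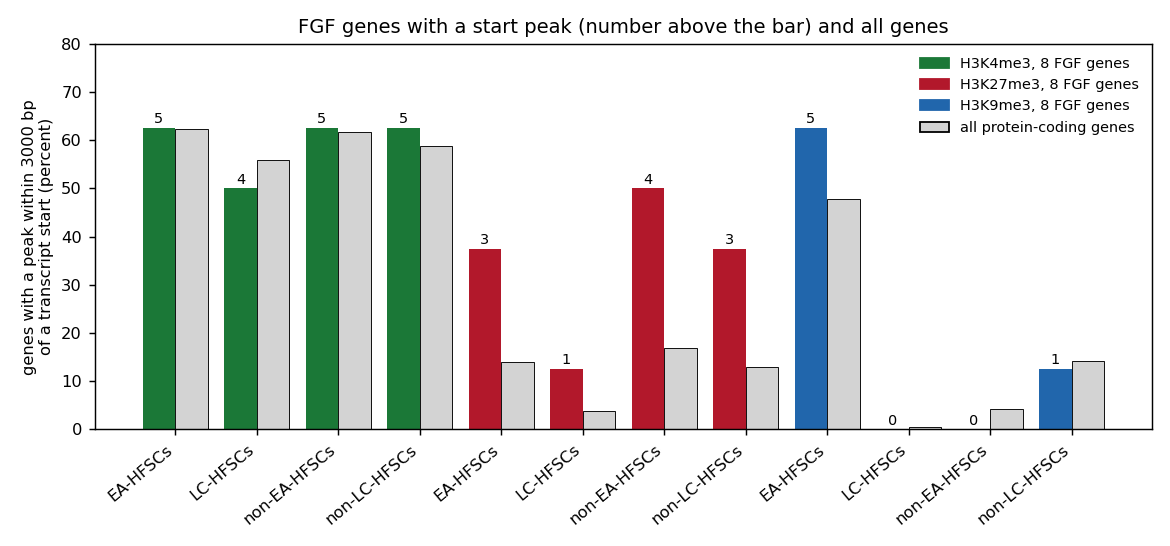
Share of genes with a peak within 3000 bp of a transcript start (y axis, percent) in each of the 12 lists (x axis), for the 8 FGF genes (coloured by mark, with their number above the bar) and for all 22366 protein-coding genes (grey). H3K4me3 was at 4 or 5 of the 8 genes beside 55.9% to 62.4% of all genes, and H3K27me3 at 1 to 4 beside 3.73% to 16.8%.

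**Figure D3:**
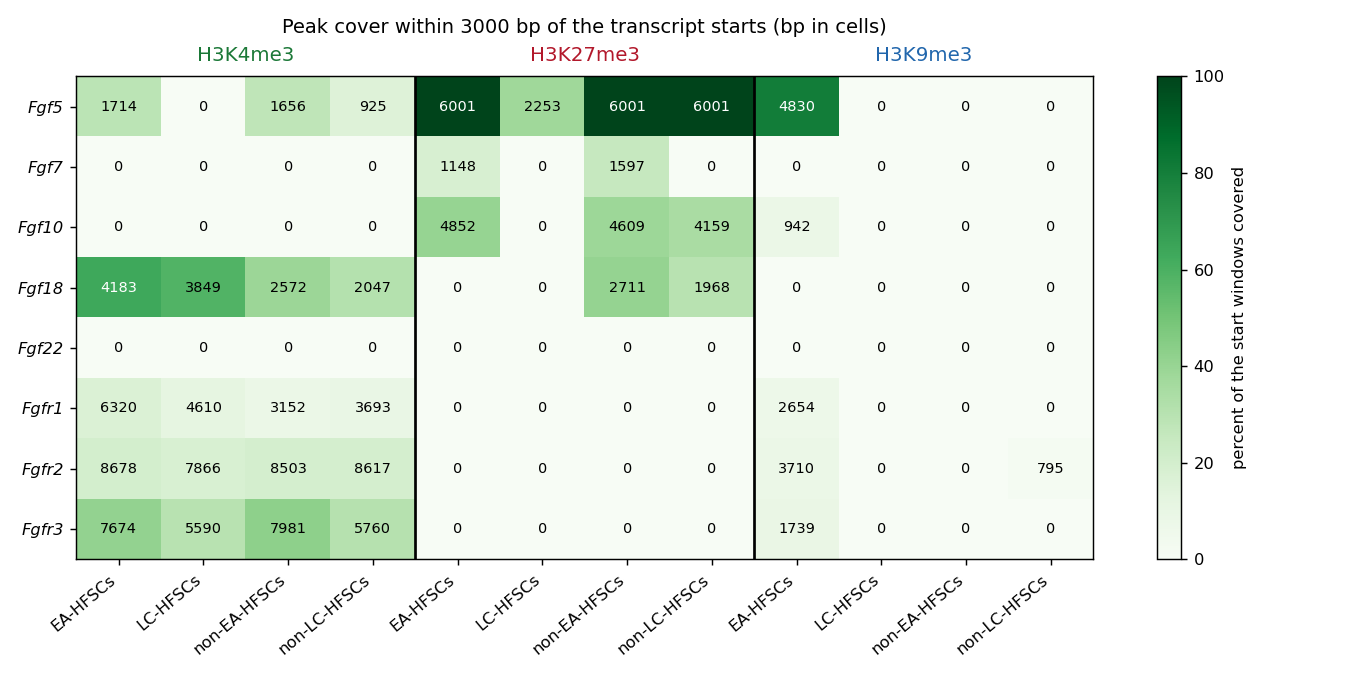
Length of the start windows under peaks for each of the 8 genes (rows) in the 12 lists (columns), as bp in the cells and as percent of the windows in the shading (0 to 100). Fgf5 had all 6001 bp of its window under H3K27me3 in 3 populations and 2253 bp in LC-HFSCs, and Fgf22 had 0 in every list.

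Fgf18, the ligand tied to stem cell rest, had its start under H3K4me3 in all 4 populations, and the mark reached farther into the gene in the stem cells. The gene lies at chr11:33017430-33047400 on the minus strand. The H3K4me3 peak was 4183 bp long in EA-HFSCs, 3849 bp long in LC-HFSCs, against 2572 bp in non-EA-HFSCs and 2 peaks of 1162 and 885 bp in non-LC-HFSCs. The upstream edge hardly differed, from -1407 to -1467 bp relative to the start over the 4 lists. The downstream edge was at 2775 bp in EA-HFSCs, at 2381 bp in LC-HFSCs, but at 1146 bp in non-EA-HFSCs and 838 bp in non-LC-HFSCs. Both stem cell peaks were longer than both others, and the H3K4me3 lists as a whole differed in the same direction, with median peak lengths of 2279 bp in EA-HFSCs, 2308 bp in LC-HFSCs, 1671 bp in non-EA-HFSCs and 1793 bp in non-LC-HFSCs. The score of a peak, 10 times the negative log10 of its p-value, is comparable within a list only, and its standing is given here as the percent of the list with at least that score. The Fgf18 peak stood at 10.9% of 21482 peaks in EA-HFSCs, 19.2% of 14718 in LC-HFSCs and 50.8% of 24498 in non-EA-HFSCs, and the better of the 2 peaks at 67.4% of 18996 in non-LC-HFSCs. The lists differ in length, so that these standings do not order the populations.

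The same part of the Fgf18 gene carried H3K27me3 in the CD34- cells. An H3K27me3 peak ran from 895 to 5050 bp in non-EA-HFSCs and from 1201 to 3168 bp in non-LC-HFSCs, inside the gene. Neither HFSC list had one at the starts, a pattern that 2.22% of all genes had. The stem cell markers Cd34, Lgr5, Sox9 and Lhx2 had this pattern too (named after their values were seen). In non-EA-HFSCs the H3K4me3 and H3K27me3 peaks shared 252 bp, and in non-LC-HFSCs they shared none. The scores of these H3K27me3 peaks were modest, 74.0 and 63.2, at 53.7% and 56.5% of their lists, and both were lost at a score of at least 100 or when lists of equal length were compared. Weaker H3K27me3 peaks followed in the same cells, at 5730 to 9048 bp in non-EA-HFSCs and 9695 to 11332 bp in non-LC-HFSCs. Farther into the gene, H3K27me3 lay over a stretch about the last intron in 3 populations, at 22992 to 26671 bp in EA-HFSCs, 21720 to 29563 bp in non-EA-HFSCs and 22854 to 26955 bp in non-LC-HFSCs. H3K9me3 peaks sat on it in EA-HFSCs (930 and 745 bp) and non-LC-HFSCs (988 bp), and a further EA-HFSC peak of 940 bp overlapped the gene's end. LC-HFSCs had neither mark anywhere on the gene.

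Fgf5, the signal that ends anagen, had both H3K4me3 and H3K27me3 at its start, with the H3K27me3 far the wider. The gene lies at chr5:98683203-98706049 on the plus strand. H3K27me3 covered the start as 1 peak of 11046 bp in EA-HFSCs, of 21524 bp in non-EA-HFSCs and of 10335 bp in non-LC-HFSCs. In their own lists these peaks were in the upper 0.568%, 2.70% and 1.49% by score. In LC-HFSCs the H3K27me3 peak was 2253 bp long and lay wholly before the start, from -2797 to -545 bp, with a score of 51.2, where the lowest score of the list was 40.01. It was nevertheless the only repressive peak at any of the 8 genes in the LC-HFSC lists.

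**Figure D4:**
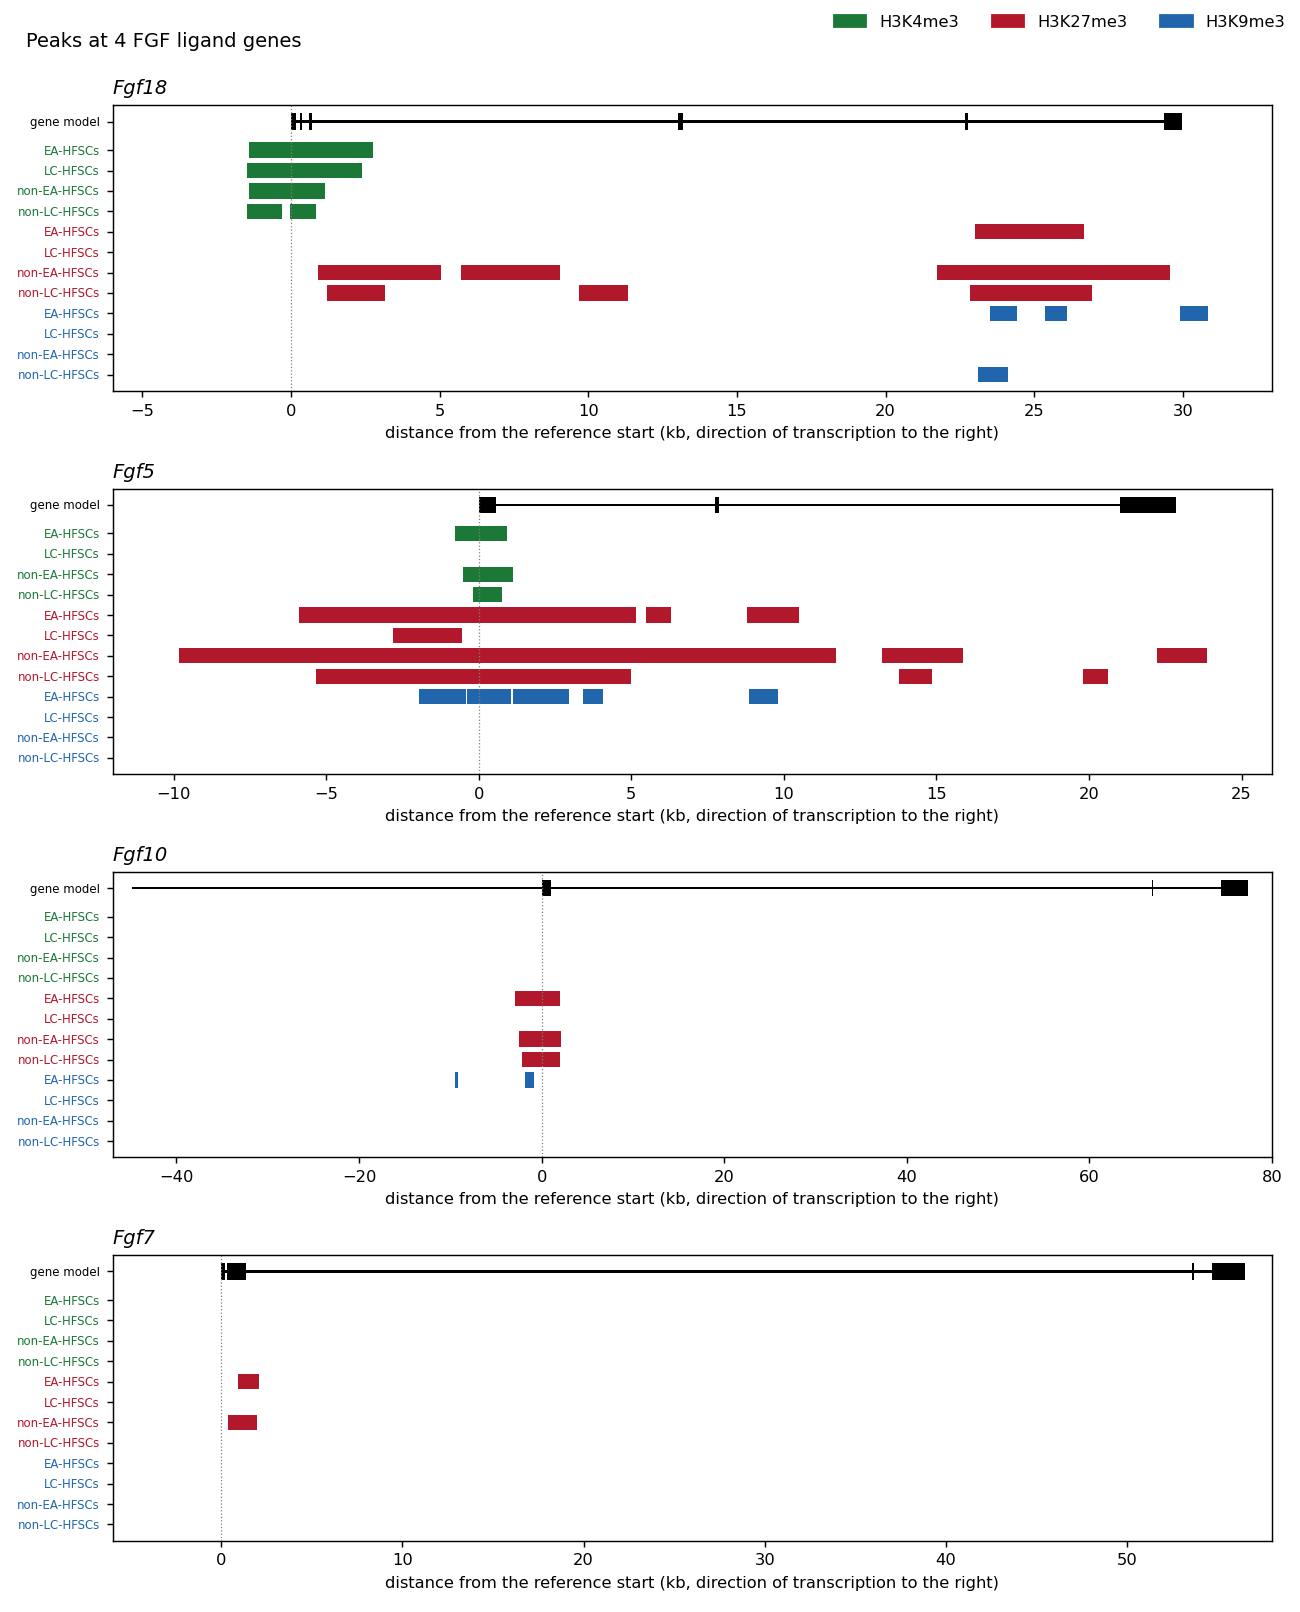
Peaks of the 12 lists at Fgf18, Fgf5, Fgf10 and Fgf7 by distance from the reference start (x axis, kb), with 1 row per population (y axis), coloured by mark, under the gene model (boxes are exons). At Fgf18 the H3K4me3 peaks end at 2775 and 2381 bp in the HFSC rows and at 1146 and 838 bp in the others, where H3K27me3 peaks begin at 895 and 1201 bp.

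H3K4me3 at the Fgf5 start was short in comparison. It measured 1714 bp in EA-HFSCs, 1656 bp in non-EA-HFSCs and 925 bp in non-LC-HFSCs, and it was not called in LC-HFSCs. These peaks were in the lower part of their lists, at 67.3%, 55.5% and 85.3% by score, and each lay wholly under the H3K27me3 peak of the same population. H3K4me3 in every list but that of LC-HFSCs was found at 2.92% of all genes. The non-LC-HFSC peak, with a score of 82.1, was also lost when each list was held to its 14718 highest-scoring peaks, while the peaks of EA-HFSCs and non-EA-HFSCs stayed. The EA-HFSC peak was close to that cut, at rank 14451 of its list by score, and the non-EA-HFSC peak was at rank 13601. H3K9me3 was called at Fgf5 in EA-HFSCs alone, as 5 peaks of 660 to 1833 bp, and all 6435 bp of them lay under H3K27me3. Fgf5 was in this way the only gene of the 8 with all 3 marks at a start in EA-HFSCs, where 7.24% of all genes had them.

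H3K4me3 and H3K27me3 together at a start were found at Fgf5 in EA-HFSCs (8.89% of all genes), at Fgf5 and Fgf18 in non-EA-HFSCs (10.8%), at the same 2 genes in non-LC-HFSCs (6.60%) and at none of the 8 in LC-HFSCs (1.30%). In LC-HFSCs, Fgf5 kept the H3K27me3 and Fgf18 the H3K4me3. Each list came from many pooled cells, so that both marks on 1 allele and 1 mark each in different cells cannot be told apart.

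Fgf10 and Fgf7, the ligands of the dermal papilla, had H3K27me3 at a start in some populations and H3K4me3 in none, as had 6.34% of all genes. Fgf10 lies at chr13:119458598-119580922 on the plus strand, with the start of its coding transcript at 119503506. A peak over that start measured 4249 bp in EA-HFSCs, 4609 bp in non-EA-HFSCs and 4159 bp in non-LC-HFSCs, and LC-HFSCs had none. The 3 peaks had nearly the same edges, from -2459 to -2185 bp upstream and from 1973 to 2149 bp downstream. They stood at 4.83%, 17.3% and 11.2% of their lists by score. EA-HFSCs had a further H3K27me3 peak of 603 bp just upstream and an H3K9me3 peak of 942 bp within the main one. The closest H3K4me3 peak lay 326648 to 326731 bp away, over the start of the mitochondrial ribosomal protein gene Mrps30. The other transcript starts of Fgf10, of noncoding models upstream, had no peak in any list.

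Fgf7 lies at chr2:125860394-125916921 on the plus strand, inside the longer gene 4930525F21Rik. Its H3K27me3 peaks were 1148 bp long in EA-HFSCs and 1597 bp in non-EA-HFSCs and began 926 and 367 bp inside the gene. Both were weak in their lists, with scores of 46.1 and 69.3, at 83.0% and 57.3%. LC-HFSCs and non-LC-HFSCs had no peak of any mark there, and the closest H3K4me3 was 116608 to 116712 bp downstream, at the starts of Dtwd1 and 4930525F21Rik. Of the 7 dermal papilla and fibroblast markers, H3K4me3 was at a start of 4 in EA-HFSCs (Pdgfra, Col1a1, Vim and Dcn), of 3 in LC-HFSCs and in non-EA-HFSCs (without Dcn) and of 2 in non-LC-HFSCs (Pdgfra and Col1a1), and Corin, Alpl and Col3a1 had none in any population. H3K27me3 was at a start of 4 of these 7 markers in EA-HFSCs (all genes 14.0%) and of 2 in LC-HFSCs (3.73%). It was at 6 in non-EA-HFSCs (16.8%) and at 5 in non-LC-HFSCs (12.9%). The part of dermal papilla cells and fibroblasts in the marks at Fgf7 and Fgf10 was not tested.

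Fgf22, at chr10:79217821-79219760 on the plus strand, had no peak of any mark at its starts or over its body. A start without a peak in the 12 lists was common, at 26.9% of all genes. The gene is short, and its closest H3K4me3 peaks lay outside the window, 7670 to 8143 bp from the start. They covered the start of Polrmt, the mitochondrial RNA polymerase, in 3 populations, and that of Rnf126 in LC-HFSCs. Fgf22 thus differed from Fgf10, whose coding start lay under H3K27me3 in 3 populations. From Fgf7 it differed only in EA-HFSCs and non-EA-HFSCs, where weak H3K27me3 peaks began inside Fgf7. Of these, the EA-HFSC peak was lost at a score of at least 50, and both were lost at 100 and with lists of equal length. The CpG ratio of Fgf22, 0.49, lay between those of Fgf7 and Fgf10.

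The 3 receptors shared wide H3K4me3 at their main start in all 4 populations and had no H3K27me3 at a start or over the body. Fgfr2 had the widest peaks. The gene lies at chr7:137306026-137410322 on the minus strand, and its peak measured 9114 bp in EA-HFSCs, 7866 bp in LC-HFSCs, 8956 bp in non-EA-HFSCs and 8873 bp in non-LC-HFSCs. These were among the widest 0.670%, 0.618%, 0.257% and 0.184% of their lists, where the median H3K4me3 peak was 1671 to 2308 bp. All 4 began between -726 and -450 bp and ran into the first introns, to between 7415 and 8404 bp. The peak covered 7 of 14 annotated starts in every population. Non-EA-HFSCs alone had further small H3K4me3 peaks inside the gene, of 921, 839 and 765 bp.

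Fgfr3, at chr5:34064373-34079716 on the plus strand, had an H3K4me3 peak of 7865 bp in EA-HFSCs, 5590 bp in LC-HFSCs, 6884 bp in non-EA-HFSCs and 5864 bp in non-LC-HFSCs. It was among the widest 1.21%, 2.56%, 0.727% and 0.984% of the lists and covered 6 of 9 starts in every population. The peak was longer in both early anagen lists than in both late catagen lists. The median peak lengths of the lists ran the other way, from 2279 bp in EA-HFSCs to 2308 bp in LC-HFSCs. In the CD34- cells they ran from 1671 bp in non-EA-HFSCs to 1793 bp in non-LC-HFSCs. The share of all genes with the order seen at Fgfr3 was not counted. A further peak of 1288 bp began 8767 bp into the gene in non-EA-HFSCs alone.

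Fgfr1, at chr8:26624126-26686186 on the plus strand, was the receptor whose H3K4me3 start peak differed most in length between populations. The peak over the reference start at 26629264 measured 5637 bp in EA-HFSCs, 4853 bp in LC-HFSCs, against 3152 bp in non-EA-HFSCs and 3693 bp in non-LC-HFSCs. Both HFSC peaks were longer, in the direction of the median peak lengths of the lists given above. The upstream edges lay within -696 to -564 bp, and the downstream edges at 4940, 4288, 2467 and 3111 bp in the same order. The peak covered 5 of 13 starts in every population. EA-HFSCs alone had a further H3K4me3 peak of 1578 bp, from -4669 to -3092 bp, next to an annotated start farther upstream. Inside the gene, peaks of 1208 bp in EA-HFSCs and 789 bp in non-EA-HFSCs lay about 17401 to 18626 bp from the start. Others of 2276 bp in EA-HFSCs, 1104 bp in non-EA-HFSCs and 937 bp in non-LC-HFSCs lay farther in, between 24201 and 26490 bp. LC-HFSCs had the peak over the reference start and no other at this gene.

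**Figure D5:**
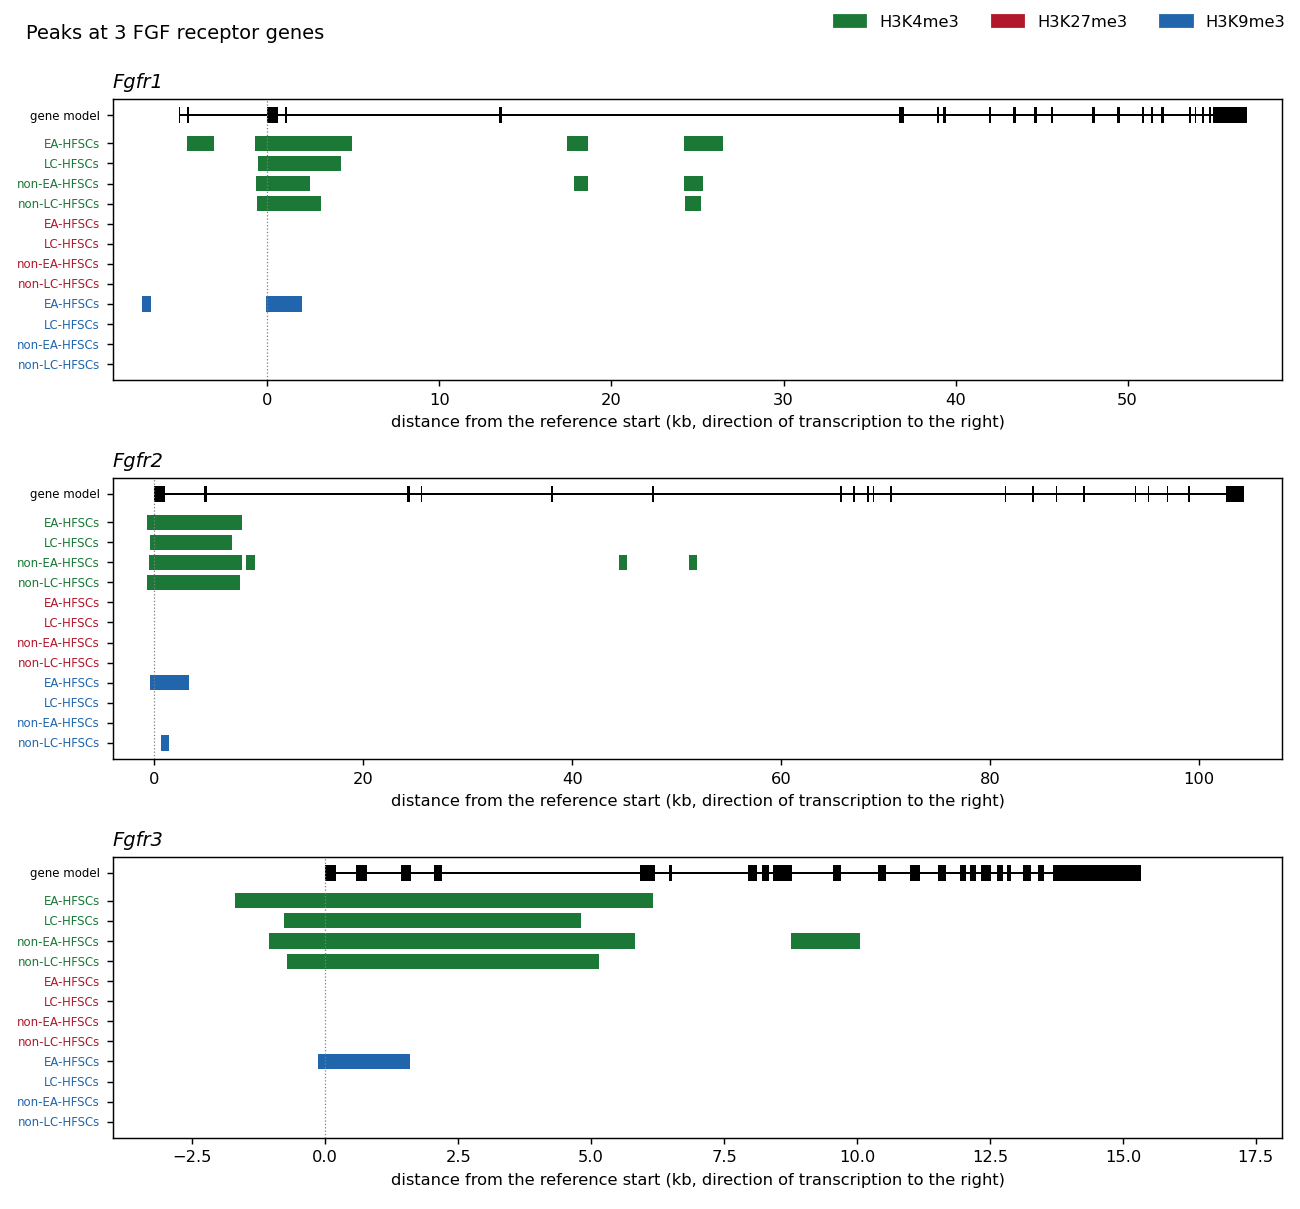
Peaks of the 12 lists at Fgfr1, Fgfr2 and Fgfr3 by distance from the reference start (x axis, kb), with 1 row per population (y axis), coloured by mark, under the gene model (boxes are exons). H3K4me3 covers the start in all populations, up to 9114 bp long at Fgfr2, the H3K27me3 rows are empty, and H3K9me3 is seen in EA-HFSCs at each receptor and in non-LC-HFSCs at Fgfr2.

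H3K9me3 at the receptors in EA-HFSCs lay on the H3K4me3. At Fgfr2 the H3K9me3 peak was 3710 bp long, at Fgfr3 1739 bp and at Fgfr1 2138 bp, with another of 516 bp upstream of Fgfr1. All of the H3K9me3 at Fgfr2 and Fgfr3 and 80.6% of that at Fgfr1 was under H3K4me3 of the same cells. Their scores were 65.3, 48.4 and 171, and none stayed when each H3K9me3 list was held to its 1414 highest-scoring peaks. Of the 8 genes, Fgf5 alone kept H3K9me3 at a start in that comparison, in EA-HFSCs. The non-LC-HFSC peak of 988 bp far inside Fgf18 also stayed. In non-LC-HFSCs a peak of 795 bp lay at Fgfr2, wholly under H3K4me3. The set of lists with a start peak that Fgfr1 and Fgfr3 shared, H3K4me3 in all 4 populations and H3K9me3 in EA-HFSCs, was that of 5668 genes, or 25.3% of all, and that of Fgfr2 was shared by 1630 genes (7.29%).

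Between early anagen and late catagen, HFSCs kept H3K4me3 at 4 of the 5 genes that had it, where 89.3% of all such genes kept it. They kept H3K27me3 at 1 of 3 (26.1%) and H3K9me3 at 0 of 5 (0.765%). In the CD34- cells, H3K4me3 stayed at 5 of 5 genes (94.6%) and H3K27me3 at 3 of 4 (71.2%), Fgf7 being the exception. None of the 8 genes had H3K9me3 at a start in non-EA-HFSCs, of whose marked genes 44.3% were marked in non-LC-HFSCs too. When lists of equal length were compared, H3K27me3 was at Fgf5 and Fgf10 in EA-HFSCs and non-LC-HFSCs, and at Fgf5 alone in LC-HFSCs and non-EA-HFSCs.

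H3K4me3 covered more of the starts in both HFSC lists than in both non-HFSC lists at Fgf18 and Fgfr1, 2 of the 4 genes with the mark in all populations, and at 32.9% of the 12280 such genes overall. At Fgf18 the covered lengths were 4183 and 3849 bp in EA-HFSCs and LC-HFSCs, against 2572 bp in non-EA-HFSCs and 2047 bp in non-LC-HFSCs. At Fgfr1 they were 6320 and 4610 bp against 3152 and 3693 bp. Within 1000 bp of the starts the order held at Fgf18 (2606 and 2606 bp against 2147 and 1585 bp) and was lost at Fgfr1, where LC-HFSCs had 2610 bp, below the 2730 and 2627 bp of the CD34- cells. At the gene start of Fgfr1 alone, only EA-HFSCs had any cover (1578 bp). The lengths at Fgfr2 and Fgfr3 overlapped between the 2 kinds of cells.

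Counted over the gene bodies, H3K4me3 was found at the same genes as at the starts, 5 in EA-HFSCs (all genes 63.1%), 4 in LC-HFSCs (56.0%), 5 in non-EA-HFSCs (62.2%) and 5 in non-LC-HFSCs (59.1%). H3K27me3 was over the body of 4 genes in EA-HFSCs (14.7%), where Fgf18 was added, of 0 in LC-HFSCs (3.81%), of 4 in non-EA-HFSCs (17.0%) and of 3 in non-LC-HFSCs (13.4%). H3K9me3 was over the body of 6 genes in EA-HFSCs (51.1%), of Fgf18 and Fgfr2 in non-LC-HFSCs (22.2%), and of none in LC-HFSCs (1.46%) or non-EA-HFSCs (13.4%).

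In 38 further genes of the FGF pathway, H3K27me3 was again found mainly at ligands, and genes of the signal relay carried H3K4me3 throughout. All 7 feedback inhibitors, such as the Sprouty genes, all 6 adaptors that relay the signal from the receptor, both secreted FGF binding proteins and both ETS transcription factors downstream had H3K4me3 at a start in all 4 populations. The same was true of 12280 of the 22366 protein-coding genes. H3K4me3 was at 32 of the 38 genes in EA-HFSCs, 27 in LC-HFSCs, 30 in non-EA-HFSCs and 29 in non-LC-HFSCs, beside 62.4%, 55.9%, 61.7% and 58.8% of all genes. Among the 17 ligands and FGF homologous factors it was at 12, 8, 11 and 10, in the same order. From EA-HFSCs to LC-HFSCs, Fgf3, Fgf8, Fgf12, Fgf15 and the co-receptor Kl lost the peak, as Fgf5 did (these genes were named after their values were seen). The other 27 of the 32 pathway genes kept it, beside 89.3% of all genes that had it in EA-HFSCs. The 6 genes with no H3K4me3 at a start in any population were Fgf14, Fgf17, Fgf23, Fgf4, Fgf6 and the co-receptor Klb.

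H3K27me3 was at 13 of these 38 genes in EA-HFSCs, 6 in LC-HFSCs, 18 in non-EA-HFSCs and 13 in non-LC-HFSCs, to be read beside the 14.0%, 3.73%, 16.8% and 12.9% of all genes. All 6 in LC-HFSCs were ligands or FGF homologous factors, and the 5 with the highest scores were Fgf8 (152), Fgf15 (106), Fgf17 (106), Fgf4 (87.5) and Fgf12 (69.5). Each was above the 51.2 of Fgf5 in that list. Outside the ligands and homologous factors, H3K27me3 was found at Kl and Spry4 alone. H3K9me3 was at 30 genes in EA-HFSCs, 0 in LC-HFSCs, 2 in non-EA-HFSCs and 5 in non-LC-HFSCs, beside 47.9%, 0.505%, 4.14% and 14.1% of all genes. Of those 5, 4 were the feedback inhibitors Spry1, Spry2, Spred2 and Dusp6, which had start peaks in the same lists as Fgfr2 (named after their values were seen).

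List by list, the pattern of Fgf5 was rare. It had start peaks in 8 lists, and 48 genes (0.215%) had them in exactly the same lists, Fgf8 and Fgf15 among them. The pattern of Fgf7 was that of 92 genes (0.411%), with Fgf6, that of Fgf10 of 173 (0.773%), with Fgf14, and that of Fgf18 of 131 (0.586%), with none of the other pathway genes. By the share of the start windows covered in each of the 12 lists, the gene most like Fgf5 was Fgf8, a ligand of limb and brain development, with a mean absolute difference of 2.89 percentage points, followed by the homeobox gene Lhx8 (3.81) and Mab21l1 (3.86). The closest to Fgf18 were Mypop (2.35), Timp2 (3.51) and Rbpms2 (3.67), and to Fgf10 Gip (0.600), Fndc3c1 (1.26) and Trpc6 (1.30). Differences for Fgf7 and the receptors were 0.667 or less. The closest genes were Gm10313, Gm9396 and Ctcfl for Fgf7, Pcmtd2, Nucb1 and Ppfibp1 for Fgfr1, Hnrnpm, Letm1 and Rpa2 for Fgfr2, and Klc3, Marveld2 and Map4k1 for Fgfr3.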

How the data were processed

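Peaks were mapped in 12 of the 16 labelled samples. The other 4, IgG controls, have no list of their own here. The authors aligned single-end reads to mm9 with Bowtie2, pooled replicate experiments and called peaks with MACS 1.4 against IgG. The deposited score of a peak is 10 times the negative log10 of its p-value, with lowest scores of 40 to 50. It depends on depth and background, which the lists do not give (the study's methods state read totals as ranges, larger in LC-HFSCs than at early anagen), so scores were ranked within a list and never compared between lists. Absence of a peak is therefore not a measured level, and there is no interval or test.

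The genes and gene lists were chosen with earlier results of these data known. Positions are 1-based in mm9 (NCBIM37) with GENCODE vM1, whose 22366 protein-coding genes gave the background. The 2 gene records named Fgfr1 were merged. A model of Fgfr2 whose start lies 2904711 bp from the others was left out, a choice made after seeing the data. Genes were named by rule: all 8, pathway genes with H3K27me3 in LC-HFSCs (at most 5) or without H3K4me3 (at most 6), and the 3 genes closest in covered share. Names of other pathway genes, of markers and of genes under nearby peaks were given after their values were seen, and not all are marked. Python 3.11.15, numpy 2.4.6 and pysam 0.24.0 were used, and overlaps were tested on simulated regions and against bedtools 2.31.1. Alternatives were scores of at least 50 or 100, a window of 1000 bp, the gene start or coding transcript starts only, the middle of the peak, and equal numbers of top-scoring peaks per mark.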

Additional observations from a re-analysis of the deposited data

Results flagged for a closer look

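At 2 receptors the covered length within 3000 bp of the starts moved in opposite directions in the 2 kinds of cells between early anagen and late catagen. These differences were not tested, since there was 1 list each, and none of them held under every alternative. At Fgfr1, H3K4me3 cover changed by -1710 bp from EA-HFSCs to LC-HFSCs and by 541 bp from non-EA-HFSCs to non-LC-HFSCs. Within 1000 bp of the starts it fell in both, from 3274 to 2610 bp and from 2730 to 2627 bp, and at the gene start only both CD34- lists had 0. At Fgfr2, H3K4me3 cover changed by -812 bp and by 114 bp. With the long Fgfr2 model kept, it fell in both, from 14490 to 12256 bp and from 12737 to 12638 bp. H3K9me3 cover at Fgfr2 changed by -3710 bp in HFSCs, where the late list had no peak, and by 795 bp in the CD34- cells, where the early list had none. At a score of at least 100, and with equal numbers of top-scoring peaks, it was 0 in all 4 lists.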

How the results depend on the processing

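Listed first are the counts that changed by more than 1.5 times. At a score of at least 100, start counts fell to 2 for EA-HFSC H3K9me3 and 0 for LC-HFSC H3K27me3. They fell to 2 for non-EA-HFSC H3K27me3 and 0 for non-LC-HFSC H3K9me3. Body counts for H3K9me3 fell to 2 in EA-HFSCs and 1 in non-LC-HFSCs. Both H3K4me3 and H3K27me3 were then at 1 gene in non-EA-HFSCs and 0 in non-LC-HFSCs, and H3K27me3 kept from EA-HFSCs to LC-HFSCs fell to 0. With equal numbers of top-scoring peaks, start counts were 1 for EA-HFSC H3K9me3, 1 for non-EA-HFSC H3K27me3 and 0 for non-LC-HFSC H3K9me3. Body counts were 2 for EA-HFSC H3K27me3, 1 for EA-HFSC H3K9me3, 1 for non-EA-HFSC H3K27me3 and 1 for non-LC-HFSC H3K9me3. Both marks were at 1 gene in non-EA-HFSCs and 0 in non-LC-HFSCs. Smaller falls were seen too. Under both settings, start counts for EA-HFSC and non-LC-HFSC H3K27me3 fell from 3 to 2. Start and body counts for non-LC-HFSC H3K4me3 fell from 5 to 4 under both. At a score of at least 100, body counts for EA-HFSC and non-EA-HFSC H3K27me3 fell from 4 to 3.

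For the 38 other pathway genes, only counts that changed by more than 1.5 times are given, and smaller falls are not listed. A score of at least 100 left 14 with EA-HFSC H3K9me3, 3 with LC-HFSC H3K27me3, 1 with non-EA-HFSC H3K9me3 and 1 with non-LC-HFSC H3K9me3. Equal numbers left 8 with EA-HFSC H3K27me3, 5 with EA-HFSC H3K9me3, 11 with non-EA-HFSC H3K27me3, 0 with non-EA-HFSC H3K9me3 and 2 with non-LC-HFSC H3K9me3. The count for non-EA-HFSC H3K9me3 was 1 at a score of at least 50, 0 for the gene start only and 0 in a window of 1000 bp. The last 3 of these alternatives, coding transcript starts and the middle of the peak left every count of the 8 genes within 1.5 times. With the gene start only, Fgf10 had no start peak in any list, since its annotated gene start is that of a noncoding model, and Fgfr1 had H3K4me3 in EA-HFSCs alone, since its gene start lies upstream of the reference start. With the long Fgfr2 model kept, body counts rose to 1 for LC-HFSC H3K27me3 and 1 for non-EA-HFSC H3K9me3. Body counts for H3K27me3 also rose from 4 to 5 in EA-HFSCs and non-EA-HFSCs and from 3 to 4 in non-LC-HFSCs. Fewer peaks or starts were counted under all but the last setting by construction. No paired analysis was possible because each population and mark has 1 list. The lists give no depth per peak, and a mark below the caller's threshold was not detectable in them.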

Other observations

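The Fgfr2 model that was left out runs over chr7:137305965-140315033, or 3009069 bp. An H3K4me3 peak lay at its distant start in each of the 4 populations, and an H3K9me3 peak in EA-HFSCs alone. The stretch between held 6 H3K27me3 peaks in LC-HFSCs and 47 to 105 in the other populations, none of which lay at the Fgfr2 starts described above.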
